A study of Mus musculus with 4 samples.

Results

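The alpha, gamma, delta and epsilon tubulin genes were examined as a family of 9 genes, Tuba1a, Tuba1b, Tuba1c, Tuba4a, Tuba8, Tubg1, Tubg2, Tubd1 and Tube1. They were chosen by gene symbol, and each symbol stood in 1 row among the 48431 genes of the deposited table. The values are ribosome footprints, the short mRNA pieces that ribosomes protect, from dorsal root ganglia (DRG), clusters of sensory neurons beside the spinal cord. All 4 libraries belong to 1 group of female SW mice of wild-type genotype, given paclitaxel into the peritoneum at 4 mg/kg in 4 injections on alternate days. The labels give neither age nor whether the replicates were separate animals, and untreated mice were not analysed here. No value below is therefore an effect of the drug, and the spread between replicates may be technical.

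Microtubules are built from dimers of 1 alpha and 1 beta tubulin, and paclitaxel binds the beta subunit and stabilises the polymer. Gamma tubulin does not enter the microtubule wall but sits in the gamma-tubulin ring complex, the template from which microtubules grow. Delta and epsilon tubulin are needed for the triplet microtubules of centrioles. The alpha isotypes differ mainly at their acidic C-terminal tail, where the last residue, a tyrosine in most isotypes, is removed by vasohibins and added back by tubulin tyrosine ligase. Long-lived microtubules of axons are rich in detyrosinated and acetylated alpha tubulin.

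The end of the coding sequence shows how some of the alpha isotypes differ. The last 30 coding bases before the stop codon are given for Tuba1c, Tuba4a and Tuba8, 5′ to 3′, with the last codon in capitals.
Tuba1c: gctgaaggagacgatgagggtgaggaaTAT
Tuba4a: tcctatgaggacgaggatgagggagaaGAG
Tuba8: tttgaagaagagaatgagggggaggaaTTT
Tuba1c ends in a tyrosine codon, and so do Tuba1a and Tuba1b, whose last 30 coding bases code for the same residues and are not printed. Tuba4a ends in a glutamate codon and has no encoded final tyrosine, and Tuba8 ends in a phenylalanine codon. The sequences are GENCODE M21 transcripts on GRCm38.

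The first 30 coding bases are given because they code for the start of the protein that the cofactor TTC5 reads when alpha tubulin synthesis is regulated by the pool of free tubulin. They also equal the length of a footprint and show how alike the isotypes are. Capitals mark bases that differ from Tuba1a.
Tuba1a: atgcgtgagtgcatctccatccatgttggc
Tuba1b: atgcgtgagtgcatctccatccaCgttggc
Tuba1c: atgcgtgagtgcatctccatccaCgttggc
Tuba4a: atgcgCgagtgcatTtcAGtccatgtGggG
Tuba8: atgAgGgaAtgcatAtcGGtccatgtGggT
Tuba1b and Tuba1c were identical over this stretch and differed from Tuba1a at 1 base, while Tuba4a differed at 6 bases and Tuba8 at 8. The first 4 codons code for the same residues in all 5 genes.

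The coding sequences of Tuba1a and Tuba1b were 98.3% identical, those of Tuba1b and Tuba1c 97.9% and those of Tuba1a and Tuba1c 97.1%. Tuba4a was 84.8% and Tuba8 78.8% identical to Tuba1a. Only 2.11% of the 30-nt words of Tuba1a, 2.49% of those of Tuba1b and 5.24% of those of Tuba1c were absent, on both strands, from the transcripts of all other annotated genes. Against Tuba1a, Tuba1b and Tuba1c alone, the shares with no copy in the other two were 19.8%, 9.74% and 7.74%. How the authors assigned reads that match several places is not given in the sources used here, so the split of reads among Tuba1a, Tuba1b and Tuba1c is uncertain. The other members could be told apart better, with 91.1% of words unique in Tuba4a, 76.4% in Tuba8, 66.8% in Tubg1, 68.6% in Tubg2 and 100% in Tubd1 and Tube1.

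**Figure D1:**
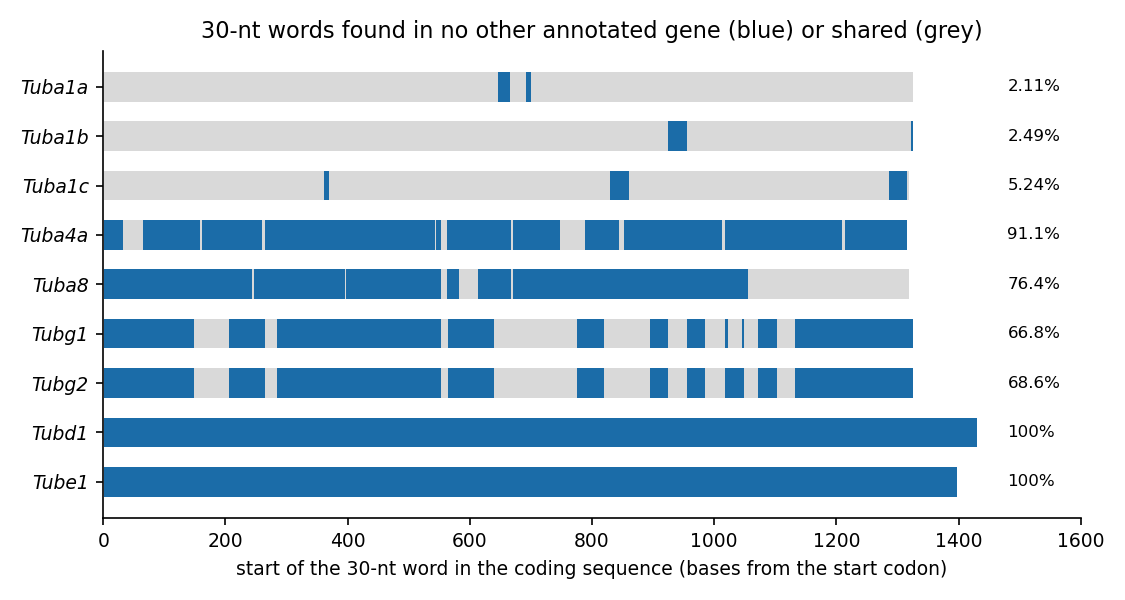
Position of each 30-nt word along the coding sequence of the 9 genes (x axis, bases from the start codon), in blue where no other annotated gene holds the word on either strand and in grey where another does, with the unique share at the right. Tuba1a, Tuba1b and Tuba1c are almost wholly grey (2.11%, 2.49% and 5.24% unique), while Tubd1 and Tube1 are blue throughout (100%).

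Some of the shared words lay in processed pseudogenes, which are copies of a spliced mRNA in the genome and so lack its introns. Of the annotated genes that held at least 50% of the words of Tuba1a, Tuba1b or Tuba1c, other than these 3, the table listed Gm5620, Gm17383, Gm14150, Gm6682 and Gm3756, all processed pseudogenes. Together they held 7.85, 8.10, 8.34 and 10.1 CPM in replicates 1 to 4, where CPM is a gene's reads scaled to 1000000 reads in the library. Gm14150 had the highest mean of them, at 3.96 CPM, and Gm6682 was at 0 in all 4 libraries. The table did not list Gm49450, an annotated protein-coding gene whose exons cover 375 coding bases of Tuba1a and 426 of Tuba1b on the same strand. Nor did it list the processed pseudogene Gm3226 or the long noncoding RNA gene AC157548.1, which also passed the 50% mark. How reads matching these genes were counted is not known here. For Tuba8, 291 coding bases lay under exons of the antisense gene Gm15856, which had a mean of 1.42 CPM.

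The libraries held 5731491, 9255057, 14633426 and 10424944 assigned reads, and 1 read was worth between 0.0683 and 0.174 CPM. All 9 sensory neuron markers were detected, at a summed level of 17739 to 20941 CPM, as were the listed markers of myelinating Schwann cells, satellite glia, fibroblasts, endothelial cells, macrophages, skeletal muscle, erythroid cells and platelets. Of the cycling markers 4 of 5 were detected and of the ciliated cell markers 2 of 4, and the testis markers Prm1, Prm2 and Tnp1 were at 0 in all libraries. Markers of muscle and blood were thus present beside those of the labelled tissue. In such bulk tissue, fewer cells of a type and less RNA per cell cannot be told apart.

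All 9 genes were detected, at 1 CPM or more in every library. Because CPM grows with gene length, levels are compared per kilobase of coding sequence, which runs from 1344 bases in Tuba4a to 1458 bases in Tubd1. From high to low, the order was Tuba1a, Tuba4a, Tuba1b, Tubg1, Tubg2, Tuba1c, Tuba8, Tubd1 and Tube1. The means spanned 536 ± 107 CPM per kb for Tuba1a to 1.79 ± 0.205 CPM per kb for Tube1 (SD, n = 4). The median detected gene stood at 15.0 ± 0.864 CPM per kb, so that Tuba1a, Tuba4a, Tuba1b and Tubg1 lay above it and the others below it.

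**Figure D2:**
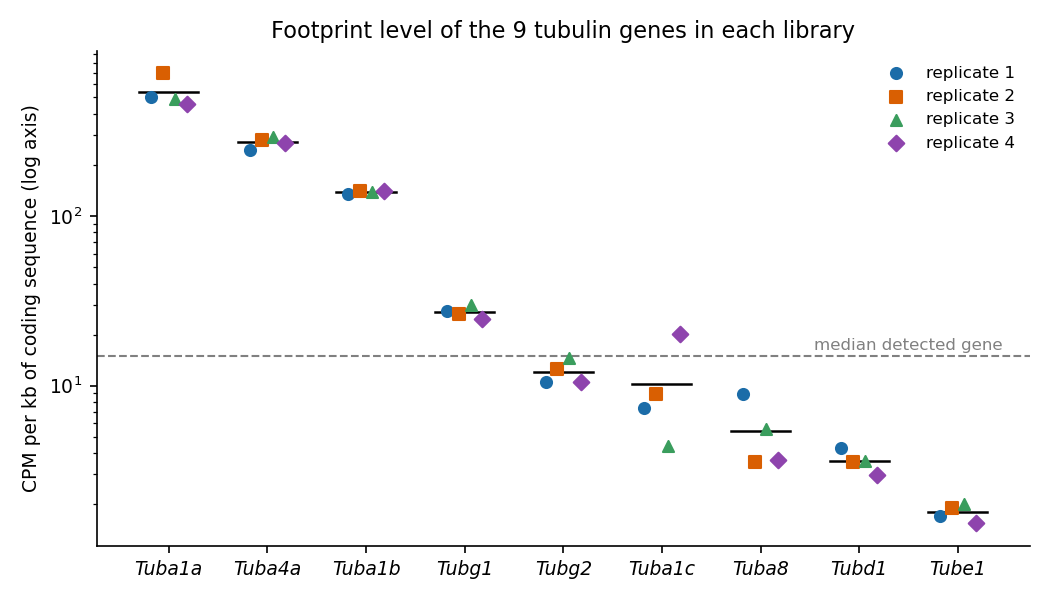
CPM per kilobase of coding sequence (y axis, log scale) of the 9 genes in replicates 1 to 4 (coloured points), with the mean as a black bar and the mean of the median detected gene as a dashed line at 15.0. Tuba1a is highest in every library and Tube1 lowest, and the points of Tuba1c and Tuba8 are spread over the levels of their neighbours.

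Tuba1a, on chromosome 15 (98949837 to 98953703, minus strand), encodes the main alpha tubulin of neurons, and mutations of its human counterpart cause cortical malformations. It stood at 681, 939, 663 and 619 CPM in replicates 1 to 4, from 3905 to 9709 reads. Replicate 2 was the highest, with a 95% Wilson interval of 919.7 to 959 CPM that did not overlap those of the others (the next was 660.3 to 703 CPM in replicate 1). Such intervals cover counting error only. Per kilobase, Tuba1a ranked 172 of the 13558 detected genes with a coding length.

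Tuba4a, on chromosome 1 (75214228 to 75219865, minus strand), encodes the isotype without a final tyrosine, and human TUBA4A variants have been linked to motor neuron disease. Its values were 331, 377, 394 and 359.9 CPM, a mean of 366 ± 27.0 CPM (SD, n = 4). The 4 libraries were close together, and each lay below Tuba1a in the same library. Per kilobase, Tuba4a ranked 426.

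Tuba1b, on the same strand of chromosome 15 as Tuba1a and 15.3 kb away from it (98931425 to 98934565), encodes an isotype found in most cell types. It stood at 183, 191, 188 and 189 CPM, from 1047 to 2747 reads. The replicates were almost equal on this scale, with a coefficient of variation of 1.93%. It was 6.27% after median-ratio scaling of the libraries, where Tubg1 varied less (4.16%).

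Tuba1c lies 76.2 kb from Tuba1a on the opposite strand (chromosome 15, 99029891 to 99038110, plus strand) and encodes a further widely expressed isotype. It stood at 9.95, 12.1, 5.95 and 27.3 CPM, from 57, 112, 87 and 285 reads. Replicate 4 was apart from the rest, with a Wilson interval of 24.3 to 30.7 CPM against 10.1 to 14.6 CPM in replicate 2, the next highest, and replicate 3 was the lowest at 4.82 to 7.33 CPM. The sum of Tuba1b and Tuba1c was 193, 203, 194 and 216.5 CPM.

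Tuba8, on chromosome 6 (121210696 to 121226854, plus strand), encodes a divergent isotype known from testis, heart and skeletal muscle. Its values were 12.04, 4.75, 7.52 and 4.89 CPM, from 69, 44, 110 and 51 reads. Replicate 1 was the highest, and its interval of 9.51 to 15.2 CPM did not overlap that of any other library. The 8 skeletal muscle markers, all detected and none at 0, summed to 5597, 1375, 2907 and 1758 CPM in replicates 1 to 4, the same order of libraries as Tuba8. Of these, the skeletal actin gene Acta1 was at 1571, 454, 828 and 485 CPM and the fast myosin gene Myh4 at 1245, 173, 546 and 372 CPM. All 8 passed the limma variance test described further on, where 1.54% of all genes did. Their part in the Tuba8 values was not tested. Tuba4a, which is also known from muscle, was lowest in replicate 1, as was the sum of the sensory neuron markers (17739 CPM). Its mean of 366 CPM was far above that of Tuba8 (7.30 CPM), and a part of muscle in Tuba4a was not tested.

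**Figure D3:**
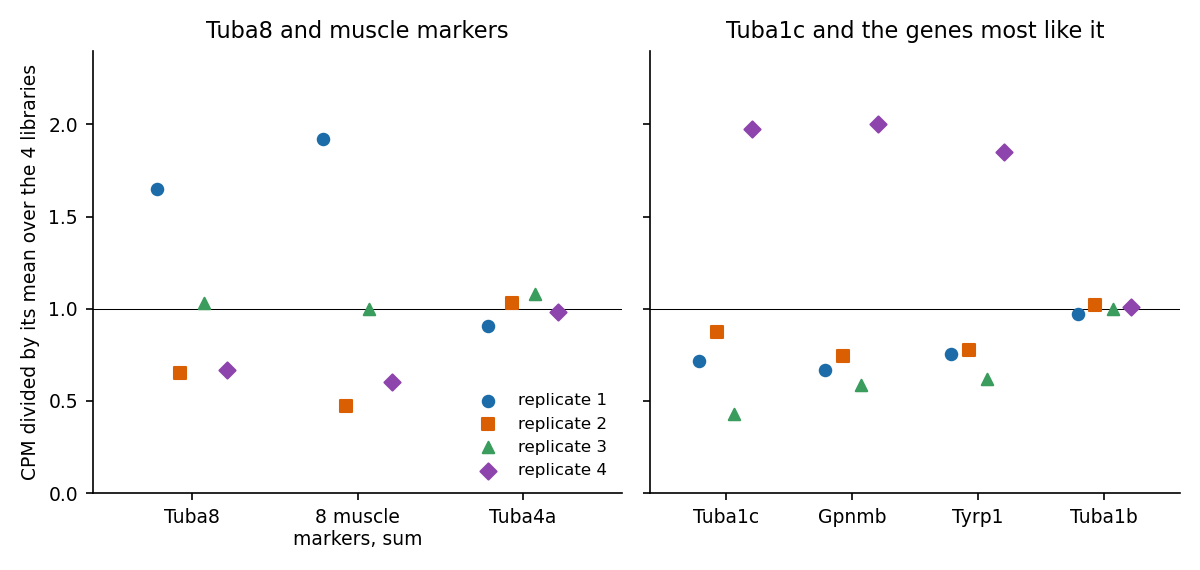
CPM divided by its mean over the 4 libraries (y axis) for Tuba8, the sum of 8 skeletal muscle markers and Tuba4a (left), and for Tuba1c, Gpnmb, Tyrp1 and Tuba1b (right), with 1 point per replicate. Replicate 1 is highest for Tuba8 (12.04 CPM) and for the muscle sum (5597 CPM), and replicate 4 is highest for Tuba1c (27.3 CPM), Gpnmb (95.3 CPM) and Tyrp1 (55.3 CPM).

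The gamma tubulins lie 29.5 kb apart on chromosome 11, both on the plus strand, with coding sequences 93.3% identical. Tubg1 (101119938 to 101126419), the gamma tubulin of most cells, stood at 37.3, 35.9, 40.6 and 33.6 CPM. Tubg2 (101155907 to 101161787), known in mouse for its expression in brain, stood at 14.3, 17.0, 19.8 and 14.3 CPM. Tubg1 was higher in all 4 libraries, by 2.61, 2.11, 2.05 and 2.35 times, and both were highest in replicate 3.

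Tubd1 (chromosome 11, 86544991 to 86567360, plus strand), the delta tubulin gene, stood at 6.28, 5.19, 5.26 and 4.32 CPM, from 36 to 77 reads. Tube1 (chromosome 10, 39133976 to 39152542, plus strand), the epsilon tubulin gene, was the lowest of the family at 2.44, 2.70, 2.87 and 2.21 CPM, from 14 to 42 reads. At this depth the libraries of each gene had overlapping Wilson intervals, from 3.23 to 8.70 CPM for Tubd1 and from 1.46 to 4.10 CPM for Tube1.

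Neighbours in the order of levels were compared within each library on the scale of log2(CPM + 1) per kilobase. Each member except Tuba1a, the highest, served in turn as a reference. All other genes with a coding length that averaged 1 CPM or more, 14127 in number, were tested against it in limma. The p-values were adjusted by the Benjamini-Hochberg method. They rest on a spread shared over all genes tested, and the variation of the reference enters every one of those genes. They therefore do not measure the spread of a pair's own 4 differences, which the SD gives. For Tuba1c minus Tuba8, for example, the standard error in limma was 0.297 where the SD was 1.24. Since most genes differ in level from any one gene, the share of all genes called is given beside each result. Tuba1a was 1.95-fold above Tuba4a (log2 0.96 ± 0.26, SD; limma adjusted p = 2.86e-09), where 98.6% of all genes differed from Tuba4a. Tuba4a was 1.95-fold above Tuba1b (0.97 ± 0.09; limma adjusted p = 1.2e-07), where 97.6% of genes differed from Tuba1b. Tuba1b was 4.996-fold above Tubg1 (2.32 ± 0.12; limma adjusted p = 9.56e-19), where 93.2% of genes differed from Tubg1. Each of these gaps was seen in 4 of 4 libraries. Per kilobase of the longest transcript in place of the coding sequence, Tuba1a was 3.09-fold above Tuba4a, and Tuba4a only 1.19-fold above Tuba1b (limma adjusted p = 0.0105).

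Below these, Tubg1 was 2.195-fold above Tubg2 in 4 of 4 libraries (1.13 ± 0.15; limma adjusted p = 1.005e-17), where 89.5% of genes differed from Tubg2. Tubg2 and Tuba1c were not separated (0.40 ± 1.012; limma adjusted p = 0.542), with Tuba1c higher in replicate 4 alone, and only 57.6% of genes could be told from Tuba1c. Tuba1c and Tuba8 did not hold a stable order either. Tuba1c was higher in 2 of 4 libraries (0.73 ± 1.24), the SD exceeded the difference, and the limma call (adjusted p = 0.0189, with 79.9% of genes differing from Tuba8) was lost without replicate 2 (adjusted p = 0.172) or replicate 4 (adjusted p = 0.635). Tuba8 lay above Tubd1 by 0.45 ± 0.41 (limma adjusted p = 0.000685, with 91.8% of genes differing from Tubd1). In replicate 2 they were level, at 3.53 CPM per kb for Tuba8 and 3.56 for Tubd1, and the sign there turned from 0.0098 to -0.0088 with a pseudocount of 0.1. Tuba8 was then higher in 3 of 4 libraries, and the call was lost without replicate 1 (limma adjusted p = 0.0505) or per kilobase of the longest transcript (0.136). Tubd1 was 1.72-fold above Tube1 in 4 of 4 libraries (0.78 ± 0.18; limma adjusted p = 7.35e-07), where 93.6% of genes differed from Tube1. This fold was 1.97 with a pseudocount of 0.1 and 3.55 per kilobase of the longest transcript.

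Of the closest alpha isotypes, Tuba1a was 3.801-fold above Tuba1b (log2 1.93 ± 0.26; limma adjusted p = 2.66e-09) and Tuba1b 14.5-fold above Tuba1c (3.86 ± 0.84; limma adjusted p = 2.1e-11), each in 4 of 4 libraries. Tuba4a was 46.8-fold above Tuba8 (5.55 ± 0.62; limma adjusted p = 2.23e-64), again in all 4. Flipping the signs of the 4 library differences in a 2-sided exact permutation test gave p = 0.125, the smallest it can give, for each pair with the same direction in all libraries on the log2(CPM + 1) scale, and p = 0.5 for Tubg2 with Tuba1c and for Tuba1c with Tuba8. The folds among Tuba1a, Tuba1b and Tuba1c carry the uncertainty of reads that match more than 1 of them. Their place in the order of levels, and their folds against the other members, carry that of reads that match several places.

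Within the alpha family, Tuba1a and Tuba4a together held 83.2%, 86.4%, 84.0% and 81.6% of the level summed per kilobase. Tuba1a alone made up 55.4 ± 4.51%, Tuba4a 28.4 ± 2.94% and Tuba1b 14.5 ± 1.39% (SD, n = 4). Tuba1c and Tuba8 made up 1.09 ± 0.809% and 0.578 ± 0.300%. Without replicate 4 the share of Tuba1c was 0.696 ± 0.193%. All these shares depend on how reads of Tuba1a, Tuba1b and Tuba1c that match several places were assigned. The other alpha tubulin genes were near the floor. Tuba3b had a mean of 0.725 ± 0.235 CPM and Tuba3a one of 0.208 ± 0.184 CPM, both known from testis, and Tubal3 had 0 or 1 read in each library. A count of 0 allows a level of up to 3 reads, worth between 0.205 and 0.523 CPM depending on the library.

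Although alpha and beta tubulin pair in equal number in the dimer, footprints on beta tubulin genes were more abundant. Alpha tubulin summed to 901, 1129, 932 and 889 CPM per kb, and the 8 beta tubulin genes to 5243, 5324, 5153 and 5012 CPM per kb. The beta sum was 5.82, 4.72, 5.53 and 5.64 times the alpha sum in replicates 1 to 4, so that all libraries agreed in direction and replicate 2, where Tuba1a was highest, had the smallest ratio. The neuronal beta tubulin gene Tubb3 alone, at 2177 ± 60.0 CPM per kb, exceeded the alpha sum in every library, as did Tubb5 in its mean (1435 ± 111 CPM per kb), and Tubb4a followed at 569 ± 35.0 CPM per kb. Of the 30-nt words of Tubb3 94.9% were unique, against 2.11% for Tuba1a. Among the beta tubulin genes this share ran from 21.7% in Tubb4b, 23.7% in Tubb2b and 31.2% in Tubb2a to 100% in Tubb1. The part of shared reads in the ratio of alpha to beta was not tested. The gamma sum was 38.2, 39.1, 44.6 and 35.4 CPM per kb, 20.9 to 28.9 times below the alpha sum.

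**Figure D4:**
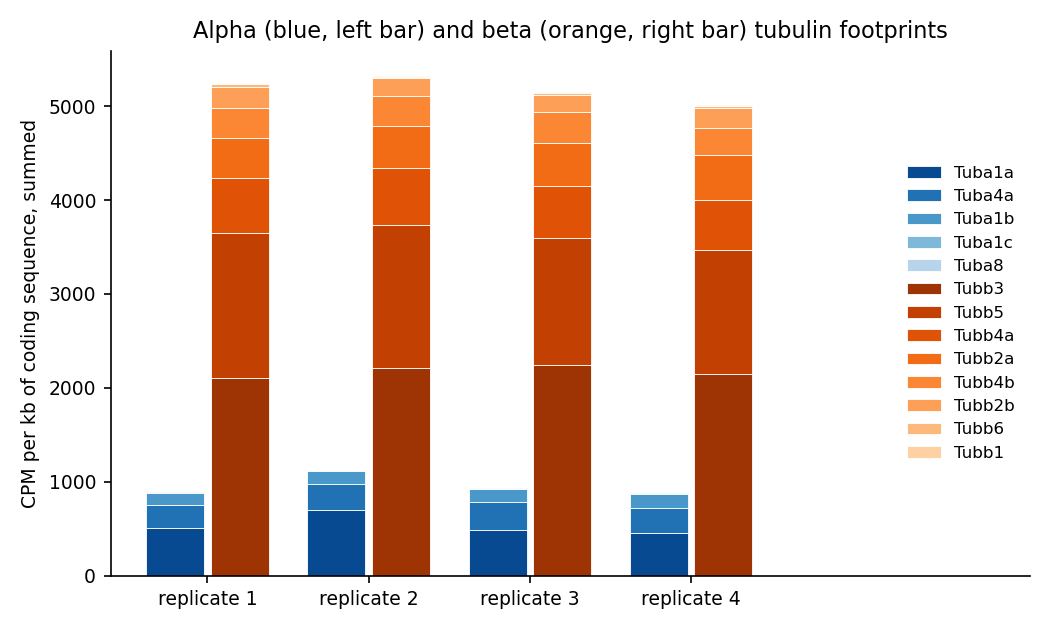
Summed CPM per kilobase of coding sequence (y axis, from 0) of the 5 alpha tubulin genes (blue, left bars) and the 8 beta tubulin genes (orange, right bars) in each replicate, stacked by gene. The alpha bars reach 889 to 1129 and the beta bars 5012 to 5324, and Tuba1a fills the largest part of each alpha bar.

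With 1 group, the test open across all genes was whether a gene varied more between the libraries than genes of the same level did. By limma's F test on the variance of log2(CPM + 1), 242 of 15728 genes, or 1.54%, passed an adjusted p of 0.05. The count was 148 without replicate 2 and 106 without replicate 3. None of the 9 tubulin genes passed in limma, while 3 had an unadjusted p under 0.05 (1040 of all genes did). These were Tuba1c, Tuba8 and Tuba1a. The median SD of the 9 genes was 0.185 on the log2 scale, against 0.183 over all genes tested.

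Tuba1c had an SD of 0.85 where genes of its level had 0.21, a variance 16.5 times as large (limma adjusted p = 0.0563). This lies close to the threshold, and it was passed when libraries were scaled to exclude the 20 highest genes and those of the mitochondrion (limma adjusted p = 0.0327). Without replicate 4 the adjusted p was 0.828. Tuba8 had an SD of 0.55 (limma adjusted p = 0.538), and without replicate 1 its variance ratio went from 5.40 to 1.72. Tuba1a had an SD of 0.27 (limma adjusted p = 0.675), and without replicate 2 its variance ratio went from 4.53 to 0.302. For Tuba1b the variance was 0.0429 times that of genes of its level, but 0.258 times after scaling without the highest and mitochondrial genes and 0.398 times after median-ratio scaling. In the scaling as deposited, the limma adjusted p of the 6 genes other than Tuba1c, Tuba8 and Tuba1a lay between 0.995 and 0.999.

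**Figure D5:**
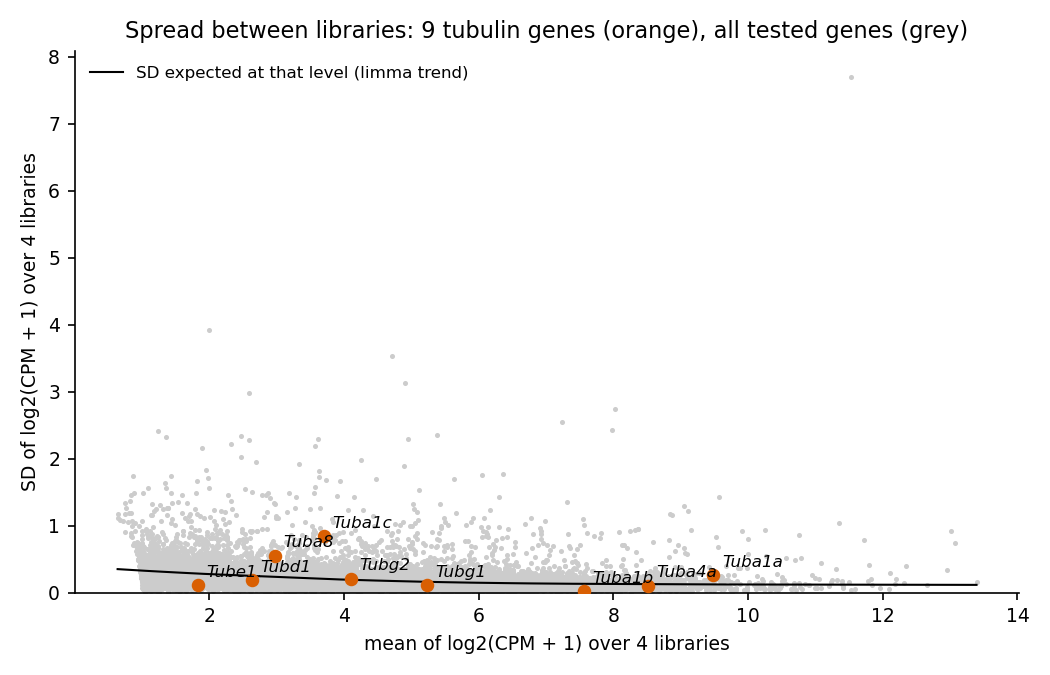
SD over the 4 libraries (y axis) against the mean (x axis) of log2(CPM + 1) for all 15728 genes tested (grey) and the 9 tubulin genes (orange), with the SD that limma expects at each level as a black line. Tuba1c (SD 0.85), Tuba8 (0.55) and Tuba1a (0.27) lie above the line and Tuba1b (0.03, in the scaling as deposited) below it.

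The genes most like a member across the libraries were found by the root mean square difference of log2(CPM + 1), centred on each gene's mean over the 4 libraries, among the 9896 genes that averaged 10 CPM or more. For Tuba1a these included the mu opioid receptor gene Oprm1 (difference 0.0303) and Gm26658 (0.0405), and 1369 genes lay within 0.2 of Tuba1a. Oprm1 stood at 48.3, 70.9, 49.3 and 45.5 CPM, with replicate 2 highest as for Tuba1a. For Tubg1 they included the transcription factor gene Gtf2f2 (0.00553) and the choline transporter gene Slc44a1 (0.0106), and 7993 genes lay within 0.2 of it. With 4 libraries, and for Tubg1 a nearly flat profile, such likeness is common.

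For Tuba1c, which was added to this search after its values were seen, no gene lay within 0.2. The nearest were Gpnmb (0.220), a lysosomal glycoprotein gene of macrophages and pigment cells, Tyrp1 (0.230), a melanosome enzyme gene, and the small nucleolar RNA gene Snora23 (0.293). Gpnmb stood at 31.8, 35.3, 27.8 and 95.3 CPM and Tyrp1 at 22.5, 23.1, 18.5 and 55.3 CPM, each highest in replicate 4, and Gpnmb passed the limma variance test (adjusted p = 0.0223). Of 8 pigment cell genes, also listed after seeing these values, 5 were detected. The 8 genes summed to between 230 and 297 CPM. In every library the highest was Sox10, which Schwann cells express too, followed by Gpnmb and Tyrp1. In replicate 4 these stood at 132, 95.3 and 55.3 CPM. Sox10 was lowest in replicate 4, at 188, 179, 169.7 and 132 CPM in replicates 1 to 4. Mitf, the pigment cell transcription factor gene, was also lowest there, at 9.95, 9.08, 11.0 and 8.15 CPM. Pmel was highest in replicate 1, at 4.01 CPM. Tyr and Mlana were at 0 in replicate 1 and at 0.288 and 0.863 CPM in replicate 4. A 0 in replicate 1, the shallowest library, allows up to 0.523 CPM, and the Tyr value in replicate 4 stands for 3 reads. The part of the pigment cell genes in the Tuba1c values was not tested.

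Partners of gamma tubulin were present throughout. All 9 listed genes of the gamma-tubulin ring complex were detected, and 0 of 9 passed the limma variance test, where 1.54% of all genes did. Per kilobase the highest were the small subunit genes Mzt2 (42.7 ± 2.28 CPM per kb) and Mzt1 (34.9 ± 5.84 CPM per kb) and the core subunit gene Tubgcp2 (20.2 ± 2.15 CPM per kb). Tubg1, at 27.2 ± 2.17 CPM per kb, lay among them. The attachment factor gene Nedd1 was lowest, at 1.77 ± 0.387 CPM per kb.

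Of 13 centriole genes 12 were detected, and 0 of 13 passed the limma variance test, against 1.54% of all genes. Cetn3 (67.6 ± 12.4 CPM per kb) and Cetn2 (63.9 ± 7.38 CPM per kb), which encode the calcium-binding centrins, were highest, followed by Cep120 (29.3 ± 1.43 CPM per kb). The median of the list, 2.19 CPM per kb, was close to the levels of Tubd1 (3.61 ± 0.551) and Tube1 (1.79 ± 0.205 CPM per kb). Tedc2, whose protein binds delta and epsilon tubulin together with that of Tedc1, stood at 5.76, 6.05, 6.77 and 5.56 CPM, and Tedc1, listed under an older symbol, at 1.047, 0.756, 1.57 and 0.767 CPM, so that it was the undetected gene.

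Enzymes that act on the alpha tubulin tail or its acetylated lysine were detected for 10 of 13 genes, and Vash2, Agbl2 and Agbl1 were not. The tubulin tyrosine ligase gene Ttl had the highest mean, at 609 ± 404 CPM per kb. The deacetylase gene Sirt2 (164 ± 24.2 CPM per kb) and the deglutamylase gene Agtpbp1 (41.8 ± 3.02 CPM per kb) followed. Ttl stood at 177, 499.6, 835 and 1242 CPM in replicates 1 to 4, so that in replicate 1 it was below Sirt2 (192 CPM). It was the 1 gene of the 12 tested in this list that passed the limma variance test (adjusted p = 0.00125). Vash1, which encodes a vasohibin, stood at 21.5, 18.5, 16.7 and 14.3 CPM. All 5 tubulin folding cofactor genes were detected, led by Tbca (178 ± 20.6 CPM per kb), Tbcb (150.1 ± 9.91 CPM per kb), which binds alpha tubulin, and Tbcd (38.5 ± 2.33 CPM per kb), and 0 of 5 passed the limma variance test. All 8 beta tubulin genes were detected and 0 of 8 passed it. With 1.54% of all genes passing, such counts do not set these lists apart.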

How the data were processed

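Ribosome-bound RNA of 4 libraries was isolated on spin columns, depleted of ribosomal RNA and cut to 28 to 34 nt, per the labels' protocols. Cufflinks 2.2.1, Bowtie2 2.2.9, TopHat2 2.1.1 and FastQC 0.11.5, and the builds mm10 and GRCm38.p4, are listed without roles per the submitters' processing notes. The deposited table is named as TPM, but each column summed to 1000000 and 1 step per library divided 96.5% to 96.7% of the nonzero values into whole numbers, with a tolerance of 0.05. The authors' values were therefore used as CPM, without length correction, and the step gave the depth. Tests were run on log2(CPM + 1), and levels of different genes were compared after division by the longest complete coding sequence of GENCODE M21 (48052 of 48431 identifiers matched).

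Variance and level tests used limma 3.58.1 with trended, robust prior variance. They were also tried on simulated libraries, in which all genes had the same spread beyond counting error apart from planted changes. Real genes need not share such a spread, and the outcome is not reported here. Alternatives were a pseudocount of 0.1, no filter, other scalings, other lengths and leaving out each library. The members and lists were chosen with earlier results of these data known. Named genes were the 9 members, of each list up to 3 detected genes with the highest level per kilobase and up to 3 undetected ones, and the 3 genes most like Tuba1a and Tubg1, of which some are not reported here. Other genes named were chosen after their values were seen.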

Additional observations from a re-analysis of the deposited data

Results flagged for a closer look

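The difference between Tubd1 and Tube1, on the scale of log2(CPM + 1) per kilobase, had 1 library far from the others. It was 1.048 in replicate 1 against 0.71, 0.66 and 0.70 in replicates 2 to 4, a gap to the nearest library of 0.879 of the whole range, above Dixon's 95% critical value for 4 samples. With a pseudocount of 0.1 the gap was 0.821, which is below that value. Replicate 1 was the shallowest library and held 36 reads of Tubd1 and 14 of Tube1. Of 36 sets of 4 values examined this was the 1 past the critical value, and chance gives about 1 in 20.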

How the results depend on the processing

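Of 110 values of the 11 pair differences under alternatives, 106 kept their direction and their side of the threshold, 4 kept the direction only and 0 reversed. Of these, 3 moved the fold by over 1.5 times, all with the longest transcript length, to 3.09 for Tuba1a over Tuba4a, 1.19 for Tuba4a over Tuba1b and 3.55 for Tubd1 over Tube1. Tuba1c minus Tuba8 ranged from 0.21 to 1.07 over the fits without 1 library, and Tuba8 minus Tubd1 from 0.28 to 0.59. Tuba8 minus Tubd1 was 0.20 per kilobase of the longest transcript (limma adjusted p = 0.136). The number of genes with a variance above their level was 757 without the filter on low values, and 106 to 205 without 1 library (148 without replicate 2 and 106 without replicate 3). Tuba1c passed this test in 4 of its alternatives, without the filter (limma adjusted p = 8.78e-07), with libraries scaled to exclude the 20 highest genes and those of the mitochondrion (0.0327), without replicate 1 (0.018) and with median-ratio scaling (0.0189), an alternative chosen after seeing the data. The other 8 genes passed it in none. The ratio of alpha to beta tubulin was 0.186 ± 0.0180, and 0.177 without replicate 2, the lowest, to 0.190 without replicate 1. Scaling without the highest genes moved 6 of 9 levels upward by more than the spread between replicates, since 11.7% to 16.5% of each library was left out. The cause of the other shifts was not tested. A count model in edgeR, planned for whole reads only, was not run, since not all values came out whole. No paired analysis was possible because the labels give 1 group. Depth limits Tube1 and Tubd1 most.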
